A study of Mus musculus with 5 samples.

Results

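Inter-joint perichondrium is a region type of the forming knee joint, and here it was compared between mouse embryos with and without an activated PDGF receptor alpha. Its members are the regions of interest whose header tag reads inter-joint perichondrium in animals of either genotype. There are 61 of them, 34.1% of the regions of the series, beside 60 of border-zone cartilage, 33 of inter-joint space, 17 of fusion tissue, and 4 each of reference cartilage and reference mesenchyme. No label defines the tag. Of these regions, 19 and 16 came from control replicates 1 and 2, and 14 and 12 from GOF replicates 1 and 2. Knees were taken at E14.5, fixed in formalin, embedded in paraffin and cut at 5 µm, and RNA was read by GeoMx, in which barcoded probes hybridised to a section are released by light from drawn regions and counted. The control animals carried Prrx1-Cre alone. The GOF animals carried Prrx1-Cre and a Pdgfra GOF (gain-of-function) allele. All 4 animals are in batch 1. Prrx1-Cre acts in limb bud mesenchyme, from which cartilage, perichondrium and joint tissue all arise, so the allele was not directed to perichondrium. A Sox9 antibody and a DNA dye guided the choice of regions, and the Sox9 transcript is therefore not reported.

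PDGF receptor alpha is a receptor tyrosine kinase of mesenchymal cells that signals through the MAP kinase and PI3 kinase pathways once PDGF ligands bind it. MAP kinase activity induces immediate early transcription factors within a short time, and then feedback inhibitors that damp the same pathway. Perichondrium is the layer of fibroblast-like cells that wraps embryonic cartilage. It adjoins the joint interzone, the Gdf5-expressing cells from which articular cartilage, ligaments and synovium develop.

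Levels below are in the authors' units, counts scaled so that the upper quartile of each region is 10.9. The level of an animal is the mean of log2(value + 1) over its regions, turned back to the linear scale, and the animal is the replicate (n = 2 per genotype). Log2 changes are GOF minus control with their standard error (SE), and a target was called at an adjusted p below 0.05 in a limma fit over 19346 targets. Recovered counts summed to between 76243 and 617053 per perichondrium region. The negative probe, which reads background, had a median of 2.80 and 2.73 in the control animals (replicate 1, then 2) against 2.98 and 2.09 with the GOF allele, so levels of a few units lie near background and their changes are understated. Y-linked transcripts set 1 animal apart: Ddx3y read 14.1 in control replicate 1 and 2.15, 3.39 and 2.24 in control replicate 2 and GOF replicates 1 and 2. The sex of the embryos is not in the labels, and its part in the results was not tested beyond the fits without control replicate 1 given below.

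The tag was checked against Tgfbi, Dkk3, Barx1 and Egr1 in the control animals. Tgfbi, which encodes an adhesive matrix protein, read 129.3 and 150 in perichondrium, 34.6 and 38.9 in border-zone cartilage, and 154.4 and 185 in inter-joint space. Dkk3, which encodes a secreted protein of the Dickkopf family, read 57.3 and 63.7 in perichondrium, 14.7 and 17.97 in border-zone cartilage, and 91.96 and 100.6 in inter-joint space. Barx1, a homeobox factor gene of joint mesenchyme, read 28.9 and 26.5, 17.1 and 16.3, and 22.9 and 22.99 in the same order. Tgfbi, Dkk3 and Barx1 therefore set perichondrium above cartilage, but Tgfbi and Dkk3 were higher still in inter-joint space. Egr1 did not mark control perichondrium, at 12.5 and 8.87 against 11.5 and 11.9 in border-zone cartilage and 14.99 and 14.95 in inter-joint space. The cartilage collagen gene Col2a1 read 1207 and 1106 in control perichondrium, against 2974 and 3340 in border-zone cartilage and 449 and 434 in inter-joint space. Col2a1 RNA was therefore abundant in the perichondrium regions, and which cells it came from was not tested. The muscle actin gene Acta1 read 5.21 and 5.18, against 368 and 228 in the mesenchyme regions that the tags call a control.

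The Pdgfra transcript, on chromosome 5 (75151322 to 75198206, RefSeq GRCm38.p6, as for all positions here), read 67.4 and 77.4 in control animals against 86.5 and 81.2 with the GOF allele. The GOF animals lay above both controls by a small margin, and the difference was not called (log2 change 0.21, SE 0.12, 95% interval -0.04 to 0.46, adjusted p = 0.877). How the allele was built is not in the labels, so this level does not check the genotype. The target mCherry/tdTomato, which detects either of those red fluorescent proteins, read 16.1 and 13.6 in the controls but 311 and 388 with the GOF allele, 21.99-fold higher (log2 change 4.46, SE 0.14, adjusted p = 1.43e-24). Every one of the 26 GOF regions, from 237 upwards, lay above the highest of the 35 control regions, at 30.96. The transcript of the Rosa26 locus (ROSA26 in the table), named here after its values were seen, read 4.05 and 6.53 against 11.7 and 9.65 (0.91, adjusted p = 0.0035). The labels name no reporter allele.

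In GOF perichondrium, 207 of 19346 targets were called (1.07%), 76 higher (0.393%) and the others lower (0.677%). Among them were 8 of 26 measured immediate early genes and 6 of 24 MAP kinase feedback regulators called higher, against 2 and 1 called lower. Of the measured joint interzone genes 10 of 25 were called lower, and of the microfibril and matricellular genes 7 of 26. The lists were chosen with earlier results of these data known, so these counts describe the lists and do not test them. Egr1 rose most among endogenous genes, 6.51-fold, and Tcim, Lgi1 and Nab2 were among the next, with 3.63-fold, 2.39-fold and 2.31-fold rises. Pamr1, Tgfbi, Dusp1, Gdf5 and Dkk3 fell most, by between 2.503-fold and 2.85-fold. In sections of mixed tissue, fewer cells of a type and less RNA per cell cannot be told apart. Before adjustment, 1298 targets (6.71%) had p below 0.05. The median log2 change of all targets was -0.05. The GOF animals did not overlap the control animals for any of the 207, against 12.5% of all targets separated upwards and 24.1% downwards.

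The number of calls depended on the fit. These p-values rest on a spread pooled over targets and over the 3 joint region types of the 4 animals, and a permutation of 2 against 2 animals cannot give a two-sided p below 0.333. Fusion tissue had 17 regions, while reference cartilage and reference mesenchyme had only 4 each. When these fusion and reference regions entered the same model, 3 targets were called and 0.941% had an unadjusted p below 0.05. Those 3 were Egr1 (adjusted p = 0.0095), mCherry/tdTomato (1.55e-10) and Tcim (0.0382), the targets called in both fits. Without control replicate 1 there were 61 calls, and without control replicate 2 there were 64. Without GOF replicate 1 and GOF replicate 2 there were 278 and 367. In these fits with 3 animals the lone animal is assumed to vary like the others. Of the 207, 37 stayed called whichever animal was left out. edgeR on the summed counts called 257 (1.33%) and shared 183 with the 207. Of its calls 48.2% were higher, against 36.7% of the 207, and the median log2 change of all targets was 0.00 in that fit.

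**Figure D1:**
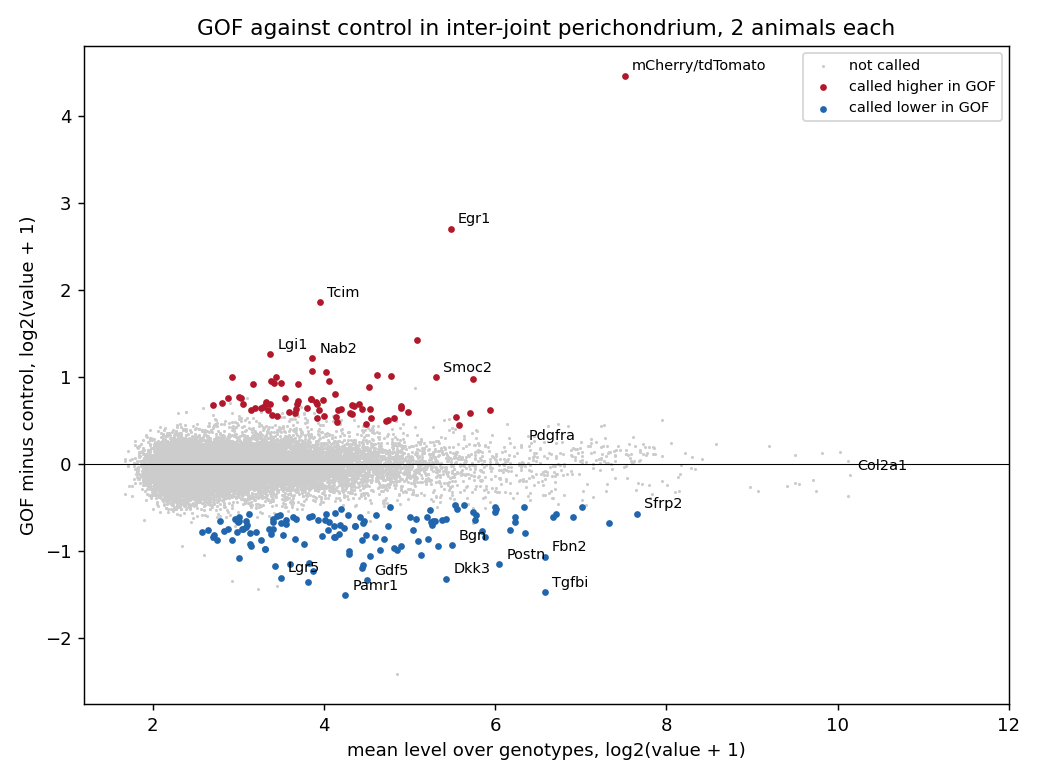
Each point is 1 of 19346 targets in inter-joint perichondrium, with the mean level over genotypes on the horizontal axis and the GOF minus control difference on the vertical axis, both on the log2(value + 1) scale. Red marks the 76 targets called higher and blue the other called targets, all lower. The reporter target and Egr1 lie farthest above 0, while Pdgfra and Col2a1 lie in the grey band of targets that were not called.

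Among immediate early genes and their corepressors, 8 of 26 measured members were called higher and 2 lower, against 0.393% and 0.677% of all targets. The list median of the log2 change was 0.24 beside -0.05 for all targets. Egr1, a zinc finger factor induced by MAP kinase signalling (chromosome 18, 34861207 to 34864956), read 12.5 and 8.87 in the controls, and 95.2 and 57.8 with the GOF allele (log2 change 2.70, SE 0.18, adjusted p = 8.7e-14). Its highest control region read 22.7 and its lowest GOF region 30.8, so the genotypes did not overlap in any region. Within the GOF group, replicate 1 stood above replicate 2. Egr2 and Egr3, of the same family, rose by 0.75 each (adjusted p = 0.0097 and 0.0185). Nab2, a corepressor that binds Egr factors and is itself an Egr target (chromosome 10, 127660918 to 127666703), read 7.46 and 8.14 against 20.3 and 18.4 (1.21, SE 0.16, adjusted p = 5.11e-06). Of its 26 GOF regions, 25 lay above every control region. Nab1, the related corepressor, read 6.87 and 5.86 against 12.4 and 13.5 (0.93, SE 0.18, adjusted p = 0.0025). The orphan nuclear receptor genes Nr4a1 (8.34 and 8.24 against 21.9 and 15.6, adjusted p = 2.83e-05) and Nr4a2 (8.71 and 7.01 against 20.4 and 11.8, adjusted p = 0.0042) also rose, as did Ier2.

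Of the AP-1 genes, Fos read 7.47 and 5.33 against 10.6 and 8.52 and was not called, although the GOF animals lay above both controls (0.52, adjusted p = 0.208). Jun read 45.3 and 49.5 against 40.4 and 53.2 and was not called (-0.03). Jund, the AP-1 subunit with the highest level of the list, fell from 86.3 and 93.9 to 53.1 and 52.4 (log2 change -0.76, adjusted p = 7.32e-05), and the stress-response gene Ier3 fell by 0.66. Of the 8 called higher, 3 stayed called without control replicate 1, 3 without control replicate 2, 4 without GOF replicate 1 and 8 without GOF replicate 2. Egr1, Nab2 and Nr4a1 stayed called each time. Of the 2 called lower, 1 stayed called without control replicate 1 and 0 without control replicate 2.

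Promoters from 250 bases before to 50 bases after the start were read from RefSeq (GRCm38.p6) for the genes of the immediate early and feedback lists that were called higher, of which 10 of 14 had an entry, with 15 starts. Each strand was searched for the Egr consensus GCGTGGGCG or GCGGGGGCG, which 3.47% of 32851 promoters in that table hold. Nab1 and Nr4a1 were the 2 members with a match, and they are shown to let the match be seen in its context. The motif and these 2 promoters were picked after the matches had been looked at. Capitals mark each match, on either strand. The Nab1 window lies at chr1:52500399-52500698 on the minus strand and holds 3 matches, and the Nr4a1 window lies at chr15:101266596-101266895 on the plus strand and holds 1.
Nab1: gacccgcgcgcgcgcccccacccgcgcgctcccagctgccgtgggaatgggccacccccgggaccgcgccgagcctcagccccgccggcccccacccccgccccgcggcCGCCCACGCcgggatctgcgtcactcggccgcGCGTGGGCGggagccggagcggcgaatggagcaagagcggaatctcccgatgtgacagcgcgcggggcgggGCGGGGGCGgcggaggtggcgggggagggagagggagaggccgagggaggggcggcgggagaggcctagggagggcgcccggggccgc
Nr4a1: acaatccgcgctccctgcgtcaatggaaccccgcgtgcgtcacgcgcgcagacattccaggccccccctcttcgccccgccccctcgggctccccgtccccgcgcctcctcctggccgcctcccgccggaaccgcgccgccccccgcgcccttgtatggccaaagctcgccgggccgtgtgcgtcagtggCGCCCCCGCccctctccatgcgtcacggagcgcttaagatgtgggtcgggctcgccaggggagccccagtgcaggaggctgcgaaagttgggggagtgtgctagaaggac
A match is a description of these letters and shows no binding. The CArG box, by its name the element bound by serum response factor, was found in 4 of the 5 Egr2 windows and in 1.63% of all promoters. Of those 4 windows, 3 overlap almost entirely, so they are not separate promoters. TGACGTCA (1.79% of all promoters) and TGAGTCA (5.2%), the cyclic AMP and AP-1 elements, were found in 0 of the 15 starts.

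Of 24 measured feedback regulators and ETS factors, 6 were called higher and 1 lower, against 0.393% and 0.677% of all targets. The list median of the log2 change was 0.25. Spry2, a Sprouty inhibitor of receptor tyrosine kinase signalling (chromosome 14, 105891947 to 105896819), read 15.8 and 18.1 in the controls against 44.4 and 27.6 with the GOF allele, a 2.01-fold rise (adjusted p = 0.000308). Its call was lost without control replicate 1 (adjusted p = 0.088). Spry1 read 8.66 and 10.7 against 20.2 and 13.99 (0.75, adjusted p = 0.00493). The same inhibitor family member Spry4 read 4.26 and 4.15 against 8.07 and 5.54 and was not called (adjusted p = 0.184).

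Dusp6, a cytoplasmic phosphatase that acts on ERK, read 5.74 and 6.43 against 14.7 and 10.8 (log2 change 0.95, SE 0.15, adjusted p = 0.000154), and its adjusted p was 0.0606 without control replicate 1. The ETS factor gene Etv5, a transcriptional target of the pathway in many tissues, read 11.9 and 11.6 against 20.5 and 21.8 (0.80), and the phosphatase gene Dusp7 (0.50) and Phlda1 (0.55) also rose. Dusp1, the nuclear MAP kinase phosphatase, went the other way. It fell from 20.7 and 17.7 to 7.99 and 5.80, 2.58-fold (adjusted p = 3.42e-07), and the median GOF region (7.53) lay below 34 of the 35 control regions. Of the 6 higher calls, 1 stayed called without control replicate 1, 2 without control replicate 2, 4 without GOF replicate 1 and 6 without GOF replicate 2, and Dusp1 stayed called each time. Taking both lists, 12 of the 14 genes called higher had a higher level in GOF replicate 1 than in GOF replicate 2.

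**Figure D2:**
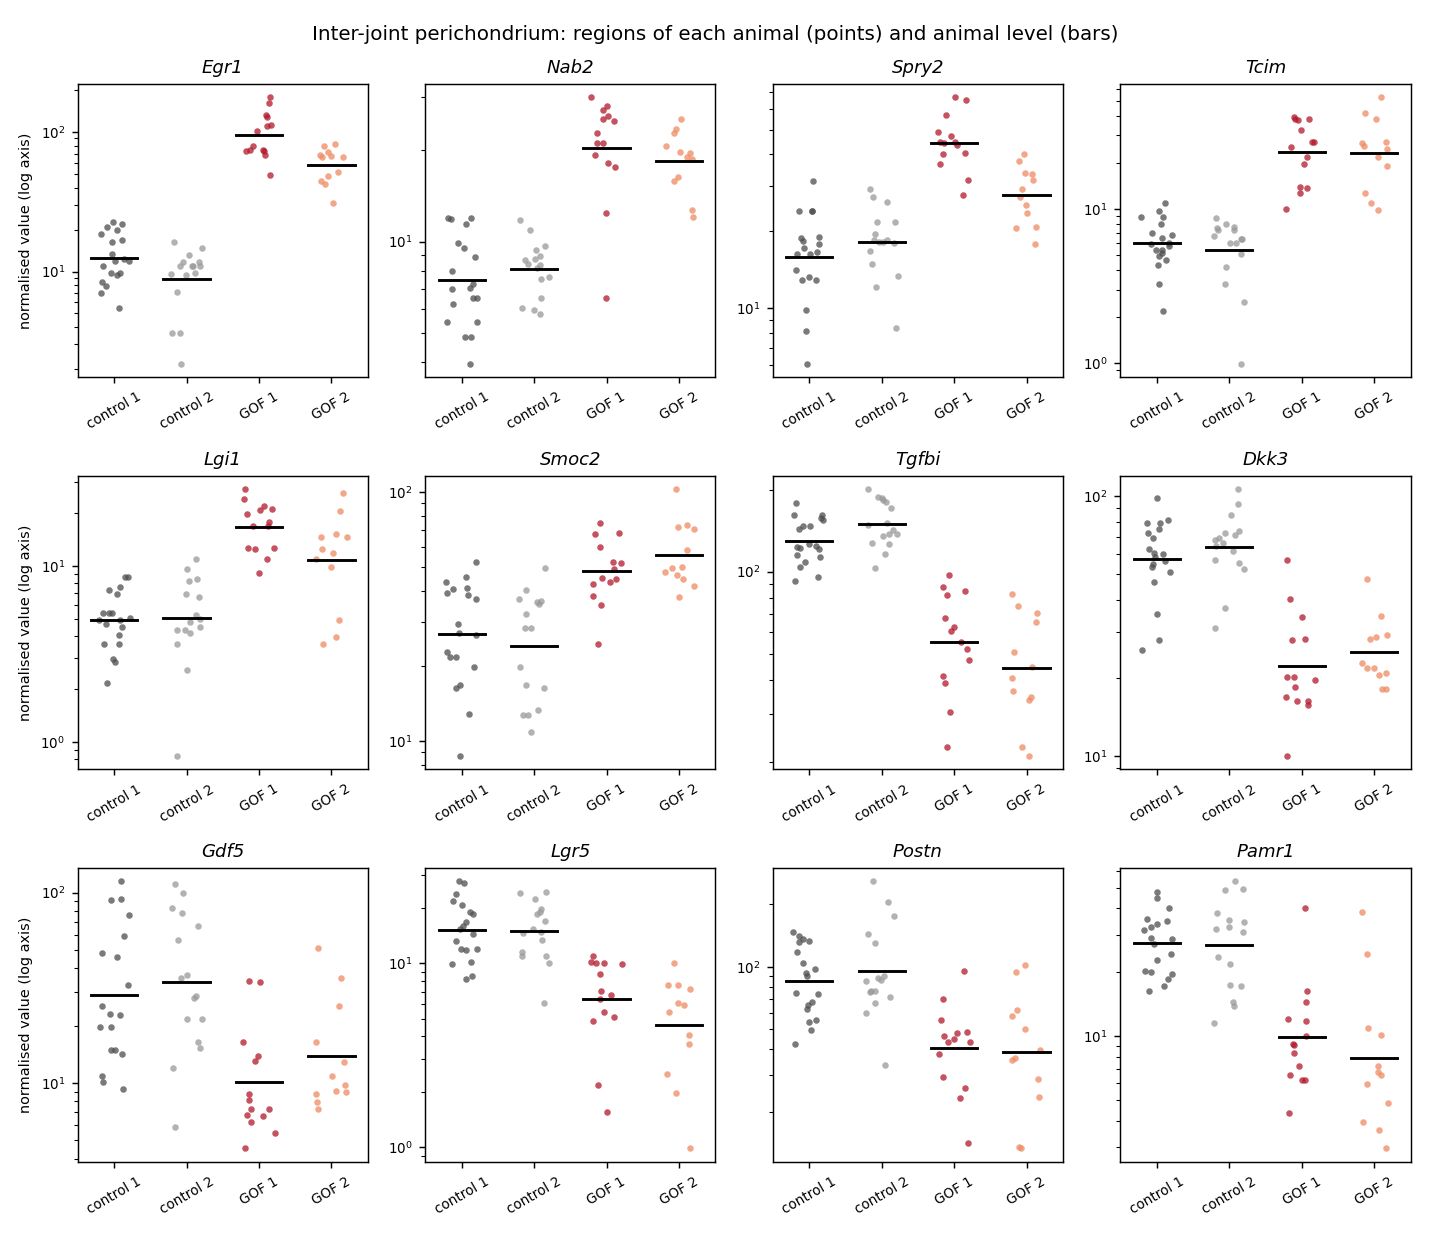
Each panel shows the normalised values of 1 gene, on a log axis, in the 61 inter-joint perichondrium regions (points, 19 and 16 control and 14 and 12 GOF), with the level of each animal as a bar. Egr1 separates the genotypes in every region and Tgfbi in all but 1 GOF region, while Gdf5 and Smoc2 overlap between the genotypes.

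Several genes outside these lists rose as much. Tcim, a small protein gene known from thyroid cancer (chromosome 8, 24437172 to 24438946), read 5.98 and 5.42 in the controls against 23.4 and 23.2 with the GOF allele (log2 change 1.86, SE 0.15, adjusted p = 7.1e-11). All 26 GOF regions lay above the control median, and 23 above every control region. Lgi1, a secreted leucine-rich repeat protein gene known from neurons, read 4.94 and 5.10 against 16.6 and 10.7 (1.26, adjusted p = 7.08e-06). Smoc2, a secreted calcium-binding matrix protein gene (chromosome 17, 14279490 to 14404790), read 26.9 and 23.98 against 47.9 and 55.7 (1.00, adjusted p = 4.57e-07). Rbp4, which encodes the retinol carrier, rose 2.08-fold (8.54 and 10.7 against 19.7 and 22.3, adjusted p = 6.99e-05, 0.0565 without control replicate 1). Col26a1, a minor collagen gene, rose 2.03-fold on average, with GOF regions from 7.25 to 228, and lost its call without control replicate 1 (adjusted p = 0.155) and without control replicate 2 (0.0596).

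Joint interzone and articular progenitor genes had the lowest list median, -0.47, beside -0.05 for all targets. Of 25 measured members 10 were called lower and 2 higher, against 0.677% and 0.393% of all targets. Gdf5, the growth factor that marks the interzone (chromosome 2, 155941023 to 155945367), read 29.1 and 33.8 in the controls against 10.1 and 13.8 with the GOF allele (log2 change -1.34, SE 0.16, adjusted p = 6.23e-07). Control regions ranged from 5.86 to 114.7, and 2 of the 26 GOF regions lay below all of them. Lgr5, the R-spondin receptor of joint progenitors, fell from 15.2 and 14.9 to 6.38 and 4.64 (-1.31, adjusted p = 6.99e-07). Pamr1, which encodes a secreted protein with a protease-like domain (chromosome 2, 102549939 to 102643041), fell from 27.3 and 26.9 to 9.91 and 7.87 (-1.51, SE 0.13, adjusted p = 2.64e-10). Its GOF regions overlapped the controls through a few high regions, up to 40.2, and 19 of 26 lay below every control region.

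Lrrc17 fell from 37.9 and 37.1 to 18.2 and 18.4 (-0.99, adjusted p = 1.18e-06), and Htra1, a secreted serine protease gene, from 38.8 and 48.2 to 21.3 and 24.6 (-0.89, adjusted p = 0.000173). The heparan sulfatase gene Sulf1 fell by 0.58 on the log2 scale, as did Sfrp2, a secreted Wnt antagonist with the highest level of the list (199 and 285 against 156.4 and 162.3, adjusted p = 0.0224). Cd44, Ltbp1 and Tgfb2 were the other members called lower. Against this direction Wnt4, a Wnt ligand of the joint, rose from 7.05 and 6.48 to 12.1 and 15.5 (0.92, adjusted p = 0.000382), and Dcx, a microtubule-binding protein gene, from 6.79 and 8.38 to 16.4 and 10.98 (0.76). Of these 2 higher calls, 1 stayed without control replicate 1, 0 without control replicate 2, 1 without GOF replicate 1 and 2 without GOF replicate 2. Of the 10 lower calls, 8 stayed called without control replicate 1, 5 without control replicate 2, 9 without GOF replicate 1 and 10 without GOF replicate 2, and Gdf5, Lgr5, Pamr1, Lrrc17 and Ltbp1 stayed called each time. Some regions carry a further interzone tag: 2 of control replicate 1, 3 of control replicate 2, 2 of GOF replicate 1 and 0 of GOF replicate 2. Without them Sfrp2 and Cd44 were no longer called.

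Perichondrium and limb connective tissue genes did not move in a shared direction. Of 21 measured members, 11 had a positive and 10 a negative log2 change, with a median of 0.13. Called were 3 as lower and 1 as higher, against 0.677% and 0.393% of all targets. The 3 called lower include both markers that set control perichondrium highest above cartilage. Tgfbi (chromosome 13, 56609586 to 56639359) fell from 129.3 and 150 to 55.04 and 44.1 (-1.48, SE 0.13, adjusted p = 2.51e-10), and 25 of 26 GOF regions lay below the lowest of the 35 control regions, at 92.5. Dkk3 fell from 57.3 and 63.7 to 22.1 and 25.04 (-1.32, SE 0.15, adjusted p = 1.41e-07), with 16 of 26 GOF regions below every control region. Mn1, a transcriptional coregulator gene, fell from 26.1 and 32.5 to 10.1 and 14.45 (-1.20, adjusted p = 3.37e-07). These 3 stayed called whichever animal was left out. Barx1 read 28.9 and 26.5 against 28.4 and 36.02 and was not called (0.21, 95% interval -0.05 to 0.46, adjusted p = 0.909). The limb transcription factor gene Tbx15 rose from 10.7 and 10.4 to 15.5 and 19.7 (0.68, adjusted p = 0.00512), a call lost without either control animal and without GOF replicate 2.

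Of 26 measured microfibril, elastic and matricellular genes, 7 were called lower and 0 higher, against 0.677% and 0.393% of all targets. The list median of the log2 change was -0.34. Fbn2, the fibrillin of embryonic microfibrils, fell from 126.4 and 130.5 to 62.8 and 58.5 (-1.07, SE 0.12, adjusted p = 1.41e-07), while the related Fbn1 read 23.8 and 27.3 against 22.99 and 27.8 (-0.01). Ltbp1 and Ltbp3, which anchor latent TGF-beta to microfibrils, fell by 1.05 and 0.67 on the log2 scale. Postn, which encodes periostin, a matricellular protein of fibrous tissue (chromosome 3, 54359267 to 54391041), fell from 85.4 and 95.04 to 40.7 and 38.9 (-1.16, SE 0.13, adjusted p = 1.27e-07). Fn1, which encodes fibronectin, fell from 69.1 and 78.9 to 50.8 and 32.5 (-0.85, adjusted p = 0.000382), although its GOF regions spanned 10.04 to 116.9. Tgfbi and Ccn4 complete the 7. Of these, 5 stayed called without control replicate 1, 4 without control replicate 2, 6 without GOF replicate 1 and 7 without GOF replicate 2.

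Small proteoglycan and lysyl oxidase genes had 4 of 15 measured members lower and 0 higher, against 0.677% and 0.393% of all targets. Bgn, which encodes the proteoglycan biglycan, fell from 58.2 and 57.8 to 25.97 and 34.2 (-0.94, SE 0.15, adjusted p = 0.0001), and 22 of 26 GOF regions lay below every control region. The cross-linking enzyme genes Lox (12.2 and 12.01 against 4.87 and 6.57) and Loxl2 (30.9 and 29.4 against 17.1 and 11.4) fell by 0.98 and 1.06 on the log2 scale. Fmod, which encodes fibromodulin, fell by 0.95, whereas Dcn read 6.33 and 6.08 against 6.02 and 6.44. Bgn and Loxl2 stayed called whichever animal was left out, while Lox was lost without control replicate 1 and Fmod without either control animal.

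Of 14 fibrous collagen genes, 4 were called lower and 0 higher (median -0.38): Col5a1, Col5a2, Col6a3 and Col14a1, by between 0.49 and 0.61 on the log2 scale. Col5a2 read 58.5 and 67.1 against 43.8 and 40.6 (-0.56, adjusted p = 0.00602). Col1a1, the main collagen of fibrous tissue, read 268 and 326 against 175.1 and 251 and was not called (-0.49, adjusted p = 0.25), nor was Col3a1 (274 and 317 against 280 and 264). Of these 4 calls, 0 stayed without either control animal, 2 without GOF replicate 1 and 4 without GOF replicate 2. Among 17 tendon and ligament genes 5 were lower and 0 higher, with a median of -0.22. The share of all targets called lower, 0.677%, is the background for each list in this paragraph. Mkx, a tendon homeobox factor gene, fell from 20.2 and 18.02 to 10.5 and 10.1 (-0.83, adjusted p = 0.000121), but Scx, the early tendon factor gene, read 16.2 and 18.7 against 14.8 and 15.9 (-0.17, adjusted p = 0.968). Without control replicate 1, 0 of the 5 tendon calls stayed, and without control replicate 2, 1 stayed. Matrix proteases and inhibitors had 7 of 29 measured members lower and 1 higher. Prss35 fell from 24.6 and 26.1 to 10.9 and 12.7 (-1.04, adjusted p = 1.03e-05), and Fap, the fibroblast activation protein gene, from 7.87 and 6.85 to 3.24 and 4.24 (-0.82, adjusted p = 0.00594). Timp3, a metalloprotease inhibitor gene, was the member that rose (14.4 and 15.8 against 26.8 and 19.4). Prss35 and Pamr1 stayed called whichever animal was left out.

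Among signalling lists, the BMP and TGF-beta list had a median of -0.21, with 0 members higher. Of its 34 measured members 6 were lower, against 0.677% of all targets. They comprise the BMP antagonist genes Nog and Fst, the BMP targets Id1 and Id3, the ligand gene Tgfb2, and Pmepa1, a target and inhibitor of TGF-beta signalling. Id1 fell from 13.1 and 14.2 to 6.23 and 8.46 (-0.82, adjusted p = 0.00102), Id3 from 19.5 and 22.8 to 8.47 and 15.1 (-0.84, adjusted p = 0.00357), and Pmepa1 from 24.4 and 31.1 to 15.9 and 14.4 (-0.82, adjusted p = 0.000103). The members that fell thus include antagonists, targets and a ligand. Of the 6, 1 stayed called without control replicate 1, 0 without control replicate 2, 4 without GOF replicate 1 and 5 without GOF replicate 2.

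For each list in this paragraph the background is 0.677% of all targets called lower and 0.393% called higher. The Wnt list had 3 of 26 measured members lower (Lgr5, Dkk3 and Sfrp2) and 2 higher (Wnt4 and the antagonist gene Frzb). Without control replicate 2 the calls of Sfrp2, Wnt4 and Frzb were lost, and those of Lgr5 and Dkk3 stayed. The canonical target Axin2 read 4.26 and 4.50 against 5.78 and 5.25 (0.28, not called). In the hedgehog list 2 of 11 members were lower, the coreceptor genes Gas1 (187 and 206 against 110.7 and 134.9) and Cdon (51.5 and 57.7 against 38.6 and 36.7), and both were lost without either control animal. The pathway targets Ptch1 (45.4 and 41.4 against 42.99 and 52.6) and Gli1 (19.99 and 20.1 against 21.8 and 23.4) were not called. Plxna4, a semaphorin receptor gene, fell from 18.6 and 20.5 to 7.45 and 8.06 (-1.23, SE 0.14, adjusted p = 2.65e-07). It and Robo1, a Slit receptor gene that rose by 0.58, were the called members among 22 axon guidance genes. The Robo1 call was lost without either control animal and without GOF replicate 1.

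Other genes with large falls were Olfml2b, an olfactomedin family gene (12.7 and 15.1 against 5.99 and 5.21, adjusted p = 1.95e-05), Itga11, the gene of a collagen-binding integrin subunit (26.4 and 32.3 against 10.1 and 15.3, adjusted p = 0.00011, 0.0765 without control replicate 2), and Fhod3, a formin gene (15.5 and 15.97 against 8.01 and 5.22, adjusted p = 5.11e-06).

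No member was called in 4 pathway lists: 7 PDGF receptors and ligands (median log2 change 0.21), 11 FGF receptors and ligands (-0.19), 24 cell cycle genes (-0.10) and 14 interferon genes (0.12). The proliferation marker Mki67 read 44.1 and 46.4 in controls and 36.9 and 49.5 in GOF animals. The contractile list had 1 of 12 members lower (Tpm1), the stress and hypoxia list 1 of 16 (Bnip3), and the hyaluronan and synovial list 1 of 11 (Cd44). The hypertrophic chondrocyte and osteoblast list had 1 of 17 higher (Mef2c). Each of these calls was lost without control replicate 2. For the lists of this paragraph the background is 0.677% of all targets called lower and 0.393% called higher.

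Chondrocyte genes had 1 of 24 measured members called, Matn3, which fell (29.4 and 22.6 against 13.1 and 19.5) and lost its call without control replicate 1, control replicate 2 or GOF replicate 1. Of all targets 1.07% were called. The GOF animals differed from each other in the chondrocyte list. Its summed level was 2769 and 2530 in the controls, 1811 in GOF replicate 1 and 3426 in GOF replicate 2, and Col2a1 read 758 and 1464 in the GOF animals. GOF replicate 2 was above GOF replicate 1 for 22 of the 24 members and above both controls for 18, and GOF replicate 1 was below both controls for 20. How much of a call moves with the share of cartilage in the regions was not tested.

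In the 7 lists of other cell types, 76 distinct members were measured and 33 reached a mean level of 5. Of all targets 1.07% were called, 0.677% of them as lower, which is the background for these lists. Skeletal muscle, endothelial, macrophage and osteoclast, Schwann cell and neuron, and surface ectoderm lists had 0 members called, with summed levels of 89.7 and 90.6 against 91.3 and 78.4 for muscle and 79.3 and 80.7 against 80.5 and 79.7 for endothelium. The erythroid sum was 85.5 and 75.9 in controls and 39.4 and 87.9 in GOF animals, with 0 called, and the difference between the GOF animals lay mainly in the globin gene Hba-a1 (20.9 and 66.5). Pericyte markers had 2 of 7 lower, Rgs5 (8.92 and 10.3 against 5.16 and 5.65) and Mcam (43.3 and 50.3 against 26.4 and 24.1). Rgs5 lost its call without either control animal, and Mcam did not. Cspg4, the list member with the highest level, read 51.3 and 51.2 against 45.2 and 56.1. The pericyte sum was 125.7 and 139.9 in controls against 100.4 and 108.8 in GOF animals, and its part in the falls of other genes was not tested.

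**Figure D3:**
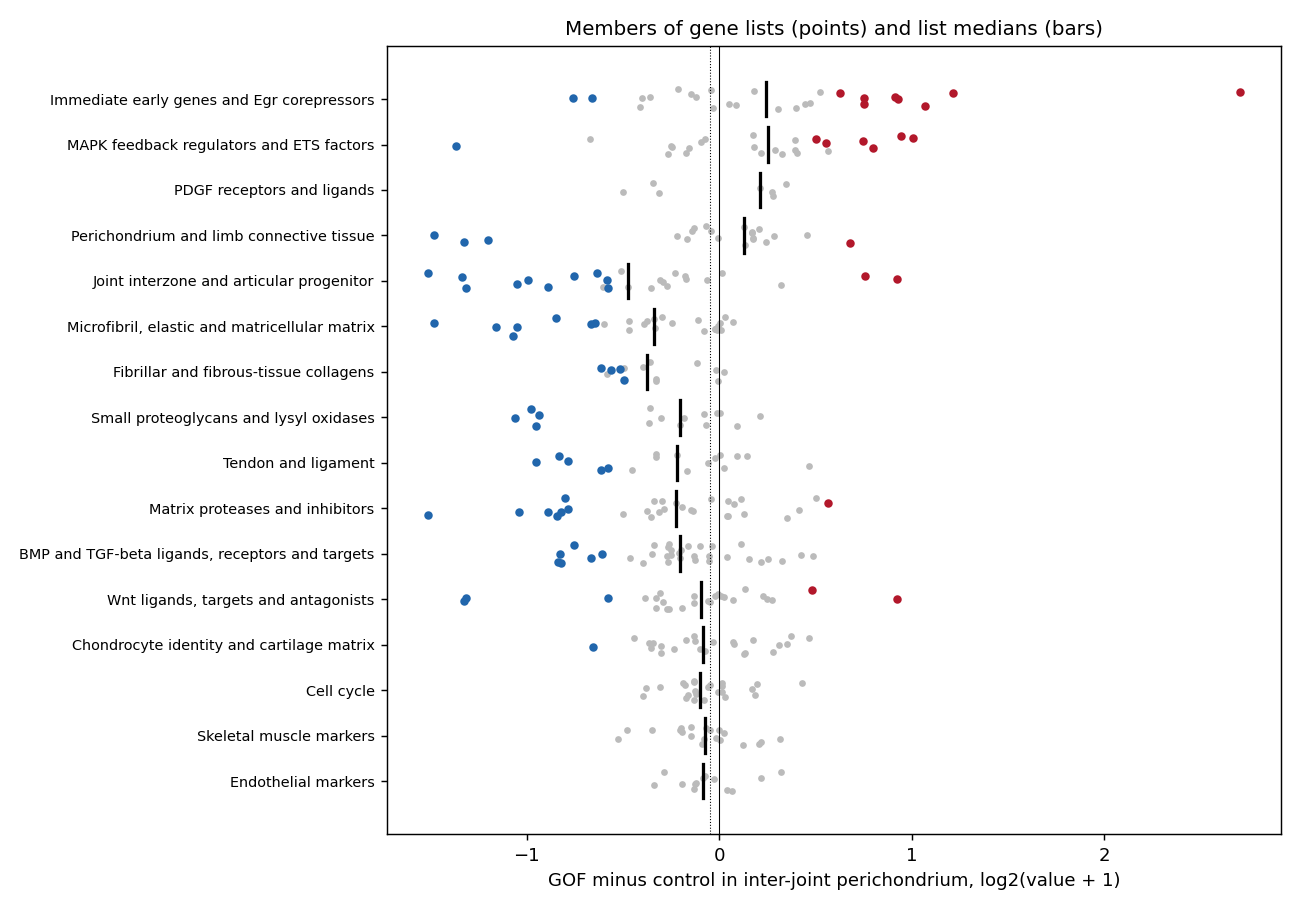
Each point is a measured member of a gene list, placed by its GOF minus control difference in inter-joint perichondrium on the log2(value + 1) scale, red if called higher, blue if called lower and grey if not called. Bars mark list medians and the dotted line the median of all targets (-0.05). Interzone genes have the lowest median (-0.47), and Egr1 is the point farthest to the right.

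The genotype effect in perichondrium was set against that in border-zone cartilage of the same animals. Border-zone cartilage had 43 calls (0.222%), 25 higher (0.129%) and 18 lower (0.093%). The difference between the effects was called for 21 targets (0.109%), 7 with a more positive (0.0362%) and 14 with a more negative effect in perichondrium (0.0724%). Before adjustment, 828 (4.28%) had p below 0.05, a share no larger than this threshold gives when no effect differs. Without either control animal, 0 differences were called, and none was called when all region types entered the fit (22 with an unadjusted p below 0.05) or by DESeq2 (216), while edgeR called 3, so these differences are less certain than the calls above. Leaving out GOF replicate 1 or GOF replicate 2 gave 12 and 14.

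Lgi1 rose in perichondrium (1.26) and read 0.05 in border-zone cartilage, a difference of 1.21 (SE 0.22, adjusted p = 0.0163). Tcim rose in both (1.86 and 0.95, difference 0.91, adjusted p = 0.0494), and Rtl3, a retrotransposon-derived gene, rose by 0.98 in perichondrium and read 0.06 in cartilage (difference 0.92, adjusted p = 0.0125). Penk, the proenkephalin gene, rose by 0.53 and read -0.39 in cartilage. Serpina3n, a protease inhibitor gene, fell in both, with log2 changes of -0.80 in perichondrium and -1.79 in cartilage. Cdh3 and Col25a1 were not called in either tissue, with effects of 0.54 and 0.47 in perichondrium and -0.42 and -0.51 in cartilage.

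Genes with a more negative effect in perichondrium included Gdf5 (-1.34 against -0.38, difference -0.96, SE 0.21, adjusted p = 0.0494), Tgfb2 (-0.75 against 0.20), Col5a2 (-0.56 against 0.30, adjusted p of the difference 0.0163) and Itga5, the fibronectin receptor subunit gene (-0.71 against 0.15). Inhba, the gene of an activin subunit, had -0.94 against 0.10, Fhod3 -1.16 against -0.15, Hhipl1 -1.08 against -0.05 and Chst5, a sulfotransferase gene, -0.67 against 0.26. Tgfbi (-1.48 against -0.71, difference -0.77, SE 0.17, adjusted p = 0.0494), Pamr1 (-1.51 against -0.69, adjusted p of the difference 0.046) and Ltbp1 (-1.05 against -0.26, 0.0493) were below the 8 largest differences of this direction but also called. For Egr1 the effects were 2.70 in perichondrium and 1.89 in border-zone cartilage, and the difference was not called (adjusted p = 0.293).

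Against inter-joint space, which the tags describe as Sox9-low interzone, 3 differences were called (0.0155%) and 1221 (6.31%) had an unadjusted p below 0.05. Inter-joint space had 550 calls (2.84%), 220 higher (1.14%) and 330 lower (1.71%). Osr2, a transcription factor gene of joint tissue, read 20.4 and 22.7 against 20.5 and 27.5 in perichondrium (0.14, not called) and fell by 1.13 in inter-joint space, a difference of 1.26 (SE 0.20, adjusted p = 0.00321). Pamr1 fell in both, with log2 changes of -1.51 and -2.58 (difference 1.07, adjusted p = 0.00321). Fjx1, a secreted protein gene, had -0.36 in perichondrium and fell by 1.48 in inter-joint space (difference 1.12, adjusted p = 0.0434). These 3 differences were lost without either control animal, when all region types entered the fit (21 with an unadjusted p below 0.05), by edgeR (4.11% of targets with an unadjusted p below 0.05) and by DESeq2 (0.853%). Leaving out GOF replicate 1 gave 5 calls and leaving out GOF replicate 2 gave 30. Egr1 (2.65 in inter-joint space), Tcim (1.84) and Tgfbi (-1.54) did not have a called difference, which does not show that their effects are alike.

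**Figure D4:**
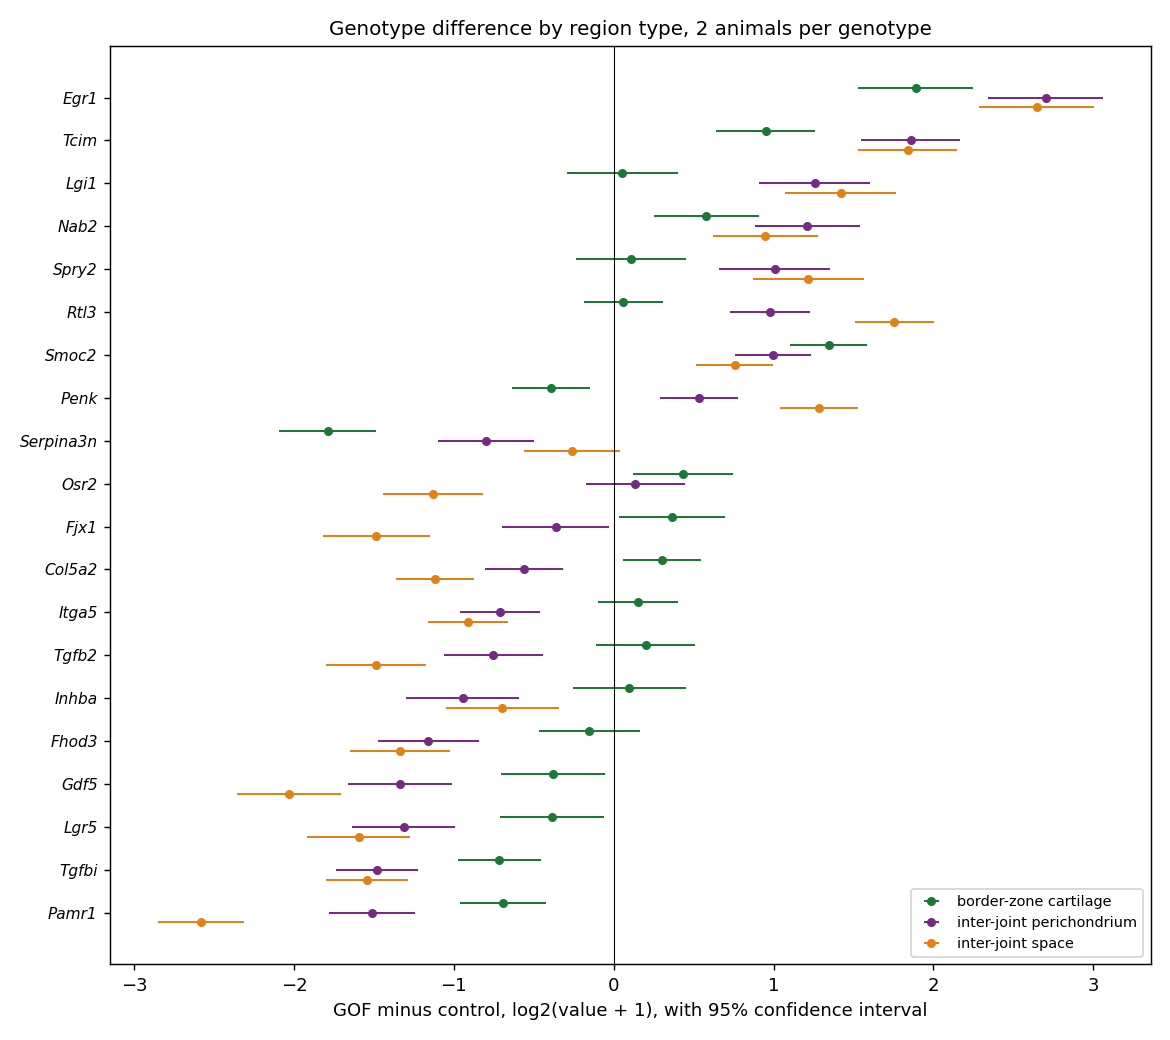
Points give the GOF minus control difference on the log2(value + 1) scale, with 95% confidence intervals from the limma fit, for genes named in the text in inter-joint perichondrium, in border-zone cartilage and in inter-joint space. Lgi1 and Rtl3 lie near 0 in border-zone cartilage and above 0 in perichondrium, and Osr2 lies near 0 in perichondrium and below 0 in inter-joint space.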

How the data were processed

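The deposited table holds signal on a linear scale: the authors scaled the counts of each region to a common upper quartile, per the file headers. The submitters' processing notes name Seurat and mm10. The counting pipeline is not stated there. Of the values, 99.98% were whole counts within 0.01 of a count after division by each region's step. The exceptions fell mostly in 4 targets. Regions were tied to animals and types through the header.

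For each animal and region type, the mean of log2(value + 1) over its regions entered a limma 3.58.1 model (R 4.3.3; lmFit, eBayes with trend). The 12 values covered 3 region types and 2 genotypes, with the animal as a random block (correlation 0.147). Benjamini-Hochberg adjustment ran over 19346 targets, leaving out the negative probe, and an adjusted p below 0.05 was a call. Reference and fusion regions were left out of this fit because the former rest on 1 region per animal and control animals have none of the latter. This fit was chosen knowing that it calls more targets than the fit with all region types. Alternatives were edgeR 4.0.16 (quasi-likelihood, TMM) and DESeq2 1.42.0 on recovered counts summed per animal and type, other pseudocounts, a filter on low values (mean of at least 5), medians over regions, background subtraction, perichondrium alone, and leaving out tagged regions or single animals. The limma analysis was tested on simulated data in which animals were set to vary little. That test therefore does not show how the fit behaves under the spread between the animals here.

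The members and the 29 gene lists were chosen with earlier results of these data known. Named genes were those called in both limma fits, the 12 largest rises and 12 largest falls with a higher group mean of at least 10 and separated animals, list members, the region markers, and called differences of effects (the 8 largest each way where over 20). Some targets that meet this rule are not reported here. Nothing says that regions or sections are independent, so regions were averaged within each animal. The p-values rest on a spread pooled over targets and over region types of these 4 animals only. That spread had 6 residual degrees of freedom per target and 31.98 more borrowed from the other targets. No sample enters from the no-template control, which was not analysed here. Promoter sequences and gene positions are from RefSeq (GRCm38.p6).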

Additional observations from a re-analysis of the deposited data

Results flagged for a closer look

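The genotype effect differed between region types by a test of the difference itself in 24 cases. The values are the effect in perichondrium minus the effect in the other type, on the log2 scale. Against border-zone cartilage the difference was positive for Lgi1 (1.21), Serpina3n (0.99), Col25a1 (0.98), Cdh3 (0.96), Penk (0.92), Rtl3 (0.92) and Tcim (0.91). It was negative for Inhba (-1.04), Hhipl1 (-1.03), Fhod3 (-1.01), Gdf5 (-0.96), Tgfb2 (-0.95), Chst5 (-0.92), Itga5 (-0.87), Col5a2 (-0.86), Shisa2 (-0.84), Igfbp4 (-0.84), Pamr1 (-0.82), Csrp1 (-0.81), Ltbp1 (-0.79) and Tgfbi (-0.77). Shisa2, Igfbp4 and Csrp1 are named here after their values were seen. Against inter-joint space it was positive for Osr2 (1.26), Fjx1 (1.12) and Pamr1 (1.07). All 24 lost their call without control replicate 1, without control replicate 2, by DESeq2 and in the fit of all region types.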

How the results depend on the processing

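The 207 perichondrium calls are 1.07% of the targets tested. This share became 0.0155% in the fit of all region types and 0.667% with medians over regions, and from 0.315% to 1.9% when 1 animal was left out. It stayed within 1.5 times with perichondrium alone (1.15%), edgeR (1.33%), pseudocounts of 5 and 0.5 (1.12% and 1.02%), without the interzone-tagged regions (0.936%) and after subtracting the negative probe (0.848%). It was 1.67% (213 calls) of the targets past the low-value filter and 1.46% of those to which DESeq2 gave an adjusted p. The differences from border-zone cartilage, 0.109% of targets, became 0% in the fit of all region types and by DESeq2, 0.0155% by edgeR, 0.031% with a pseudocount of 0.5, 0.0258% with medians, 0.0414% without the tagged regions, 0.0207% after background subtraction, and 0% to 0.0724% without 1 animal. Those from inter-joint space, 0.0155%, became 0% in the fit of all region types, by edgeR and by DESeq2, 0.0672% with a pseudocount of 5, 0.0414% without the tagged regions, 0.00517% after background subtraction, and 0% to 0.155% without 1 animal. Of the named results, 82 perichondrium effects and 18 differences of effects were followed through these settings, and none of them changed sign. Apart from that of Barx1, perichondrium effects that were not called were not followed. Of 81 named perichondrium calls, 27 stayed called whichever animal was left out, and edgeR lost Col5a1, Col6a3, Fmod, Fn1, Gas1, Ltbp3, Nog and Robo1. The cause of these changes was not tested, including in the fits with 3 animals. Same-numbered animals deviated together only weakly (correlation 0.0579 in perichondrium, 0.0543 in border-zone cartilage and 0.0333 in inter-joint space, with 2 pairs), so the numbers are not taken as pairs. A replicate block gave 281 perichondrium calls (1.45%) and 14 and 11 differences (0.0724% and 0.0569%). With 2 animals per genotype and a negative probe near 2.77, changes of targets with levels of a few units are the least certain.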

Other observations

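The genes below lie outside the gene lists and were picked from those called lower in GOF perichondrium after their values were seen, so they stand for no group and carry no test of one. Pdia3, a disulfide isomerase gene, fell from 133.4 and 152.3 in control replicates 1 and 2 to 75.6 and 113.9 in GOF replicates 1 and 2 (log2 change -0.61, limma adjusted p = 0.0375). Calr, which encodes the chaperone calreticulin, fell from 87.2 and 91.8 to 47.2 and 71.05 (-0.62, adjusted p = 0.0204), and Hspa5, the gene of the chaperone BiP, from 45.6 and 41.6 to 27.5 and 32.1 (-0.54, adjusted p = 0.013). The collagen prolyl hydroxylase genes P4ha2 (-0.70) and P4ha3 (-0.60) were called lower too. These 5 calls are weak: each was lost without control replicate 1 and without control replicate 2, and edgeR called Hspa5 alone among them. GOF replicate 1 was the lower animal for Pdia3, Calr, Hspa5 and P4ha3, and GOF replicate 2 for P4ha2.

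Zyx, which encodes the focal adhesion protein zyxin, fell from 59.4 and 71.5 to 38.5 and 44.2 (-0.65, adjusted p = 0.00168). Csrp1, a LIM domain gene of actin bundles, fell from 27.6 and 26.7 to 15.1 and 13.6 (-0.88, adjusted p = 3.01e-05) and stayed called whichever animal was left out. Palld (-0.72), Pdlim7 (-0.72) and Csrp2 (-0.70) were called lower as well. Zyx, Palld, Pdlim7 and Csrp2 lost their calls without control replicate 2, and edgeR called all of them and Csrp1. The contractile gene list had 1 of 12 members called lower, against 0.677% of all targets, with a median log2 change of -0.01.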
